A study of Mus musculus with 2 samples.

Results

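A set of 10 genes of the NRF2 pathway outside the glutathione transferases was compared between 2 mouse liver RNA libraries. They were chosen by symbol, as Nfe2l2, Keap1, Gclc, Gclm, Srxn1, Txnrd1, Nqo1, Ephx1, Ugdh and Hmox1, with earlier results of these data known. All 10 were found among the 36771 rows of the deposited table, each on 1 row. The libraries, 1 per genotype, came from livers taken at 5 months of age from mice of the BALB/c strain. One library is labelled SRSF2-KO, genotype SRSF2-/-, with the deletion of the splicing factor gene restricted to the liver by the study's design text, and the control is labelled WT. What drove the deletion, and whether the control mouse carried any allele, is not given in the sources used here. With 1 library per genotype there was no replicate error, no test could be made, and every difference below is one between these 2 libraries.

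NRF2, the product of Nfe2l2, is a transcription factor that is kept scarce by KEAP1, which hands it to a CUL3 ubiquitin ligase for degradation. Electrophiles and oxidants modify cysteines of KEAP1, NRF2 then accumulates, pairs with a small MAF protein and binds the antioxidant response element (ARE) of its target genes. In liver the pathway is known for the enzymes that make and recycle glutathione, reduce thioredoxin and quinones, and conjugate and export foreign compounds.

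Levels are given in FPKM, fragments scaled by the authors to transcript length and library size. Log2 ratios were taken as log2((SRSF2-KO + 1)/(WT + 1)) and lie above 0 where the SRSF2-KO-labelled library had the higher level. A plain ratio of FPKM is named as such and carries a 95% exact (Clopper-Pearson) interval from estimated fragments, which covers counting error only. From the whole-read steps of the lowest values, depth was estimated at 24400000 fragments for the SRSF2-KO-labelled library and 19400000 for the one labelled WT. The targeted gene was not lower in the library labelled for its deletion. Srsf2 stood at 45.3 FPKM in the SRSF2-KO-labelled library and 38.2 FPKM in the WT-labelled library, a plain ratio of 1.19 (1.10 to 1.29). That value covers the whole gene, and which exons were deleted is not given in the sources used here, so it cannot show whether the deletion took place. Albumin (Alb), the defining hepatocyte gene, was listed at 0 in both libraries, as were Gstp1 and Gstp2, while Apoa1, the apolipoprotein A-I gene, stood at 8305 FPKM in the SRSF2-KO-labelled library and 10936 FPKM in the WT-labelled library. The hepatocyte list was otherwise present, with 7 of 8 markers measured.

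The stretches of 250 bases before the transcription start are shown for 4 members, because the ARE is the sequence through which NRF2 reaches its targets. Srxn1 had the highest ratio of the 10, Ugdh and Nqo1 the next ones, and Gclm the lowest. Capitals mark each match to the core TGACNNNGC or its variant TGAGNNNGC, searched on both strands, so that a match on the opposite strand reads as GCNNNGTCA or GCNNNCTCA.
Srxn1: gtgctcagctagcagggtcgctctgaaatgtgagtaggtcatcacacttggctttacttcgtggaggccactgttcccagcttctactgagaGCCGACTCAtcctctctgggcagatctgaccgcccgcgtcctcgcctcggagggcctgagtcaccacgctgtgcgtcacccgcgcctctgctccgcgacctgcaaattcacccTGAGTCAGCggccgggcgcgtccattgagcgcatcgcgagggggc
Ugdh: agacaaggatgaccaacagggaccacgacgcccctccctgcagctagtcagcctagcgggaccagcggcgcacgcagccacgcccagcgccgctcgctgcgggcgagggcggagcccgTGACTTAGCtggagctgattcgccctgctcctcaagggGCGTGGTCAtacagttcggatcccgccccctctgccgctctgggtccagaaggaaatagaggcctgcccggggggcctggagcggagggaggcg
Nqo1: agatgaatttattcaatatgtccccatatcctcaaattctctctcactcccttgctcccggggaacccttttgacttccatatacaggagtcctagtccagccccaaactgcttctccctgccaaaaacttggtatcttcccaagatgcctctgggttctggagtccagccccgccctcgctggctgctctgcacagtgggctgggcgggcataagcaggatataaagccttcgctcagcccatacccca
Gclm: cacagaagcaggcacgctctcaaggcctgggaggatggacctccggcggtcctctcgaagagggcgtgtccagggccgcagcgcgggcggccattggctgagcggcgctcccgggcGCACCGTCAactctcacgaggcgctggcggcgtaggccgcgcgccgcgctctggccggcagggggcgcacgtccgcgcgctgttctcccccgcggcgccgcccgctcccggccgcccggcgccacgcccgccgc
All 4 are RefSeq sequences of build GRCm38.p6 and are written 5′ to 3′ on the strand of the gene. They lie at chr2:152105274-152105523 (plus strand) for Srxn1, chr5:65435843-65436092 (minus strand) for Ugdh, chr8:107403206-107403455 (minus strand) for Nqo1 and chr3:122245307-122245556 (plus strand) for Gclm. The deposited values were made on another build, mm9, and were matched by gene symbol alone.

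Srxn1 held 2 cores, both of the TGAGNNNGC form. One began 45 bases before the start and contained the letters TGAGTCA, which are also the core of the AP-1 element, and a second TGAGTCA that is no part of an ARE core began 102 bases before the start. The other core lay on the opposite strand, 158 bases before the start. Ugdh held 2 cores of the TGACNNNGC form, 132 bases before the start on the gene's strand and 94 bases before it on the opposite strand. Gclm held 1, on the opposite strand 134 bases before the start, and Nqo1 held none in this window.

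Of the 10 members, 8 had a window in the RefSeq table (10 windows, since Txnrd1 has 3 starts), and Gclc and Hmox1 had no entry. A core was found in 5 of these 8 genes, the others being Nfe2l2, at 240 bases, and 1 of the Txnrd1 starts, at 92 bases. Of all 32851 windows of that length, 23.0% held either form (10.2% held TGACNNNGC and 14.4% TGAGNNNGC), and 4.46% held TGAGTCA. By gene, 25.7% of 27025 symbols held either form in at least 1 window. The presence of a core did not sort the members by their ratios: Srxn1 and Ugdh, both higher in the SRSF2-KO-labelled library, held 2 each, Nqo1 was also higher and held none, and Gclm held 1.

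Across the 10 genes, 9 had a log2 ratio above 0, against 46.1% of 11428 measured rows, which reached 1 FPKM in either library. Of the 10, 3 were at least 1.5-fold higher on this scale, against 11.7% of measured rows, and 1 of 10 was at least 2-fold higher, against 5.49% of rows. None of the 10 was lower by 1.5-fold, a size reached by 10.1% of rows, or by 2-fold, reached by 3.22%. The median log2 ratio was 0.29 over the 10 genes and -0.04 over all measured rows. The 3 genes were Srxn1, Ugdh and Nqo1, and the remaining 7 lay between -0.19 and 0.38.

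**Figure D1:**
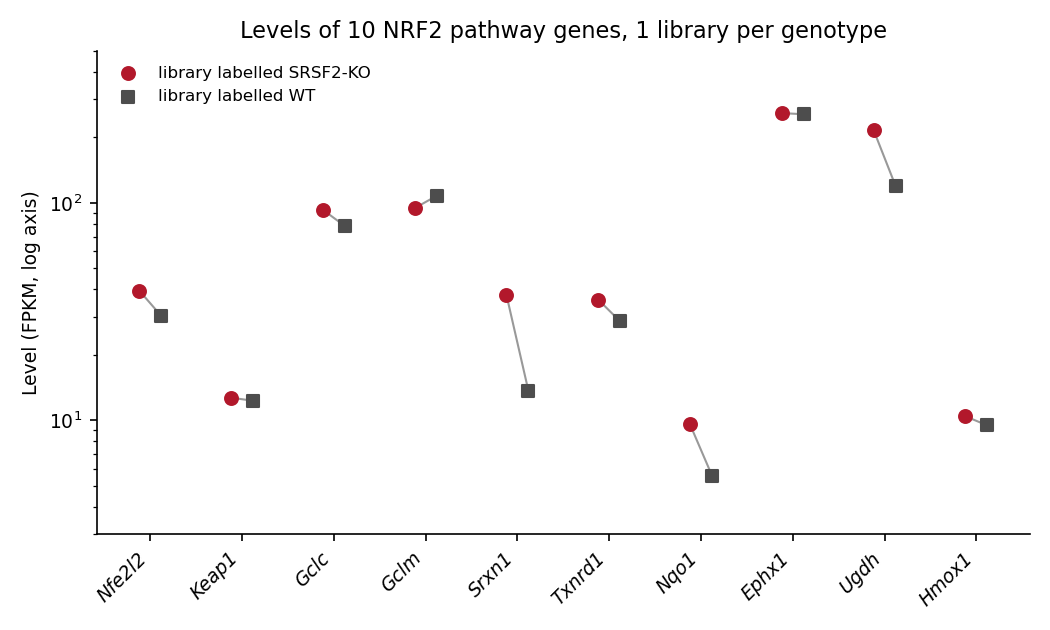
Levels of the 10 genes in FPKM on a log axis, with circles for the SRSF2-KO-labelled library and squares for the WT-labelled library, 1 library each. Srxn1 shows the widest gap, at 37.9 against 13.7 FPKM, Ugdh and Nqo1 the next widest, and Gclm alone has its circle below its square.

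Nfe2l2, which codes for NRF2 itself, stood at 39.5 FPKM in the SRSF2-KO-labelled library and 30.2 FPKM in the WT-labelled library. Its log2 ratio of 0.38 was exceeded by 18.3% of measured rows, and the plain ratio was 1.31 (1.22 to 1.40). Keap1, the gene of the sensor, was at 12.7 against 12.3 FPKM, with a plain ratio of 1.03 whose interval of 0.936 to 1.14 includes equality. Transcripts of the factor thus outnumbered those of its sensor by 3.11 to 1 (2.87 to 3.36) in the SRSF2-KO-labelled library and by 2.45 to 1 (2.24 to 2.69) in the WT-labelled library. Such a ratio of levels within a library does not depend on how the libraries are scaled to each other. It does rest on the transcript lengths that the authors used, as does every level of a gene set beside that of another below. NRF2 is controlled mainly through the stability of its protein, which these transcript levels do not measure.

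Glutathione is made in a pair of steps, of which the first and rate-limiting one is run by glutamate-cysteine ligase. Gclc codes for its catalytic subunit and stood at 93.0 FPKM in the SRSF2-KO-labelled library and 78.2 FPKM in the WT-labelled library, a plain ratio of 1.19 (1.15 to 1.23). Gclm, the gene of the modifier subunit, which raises the enzyme's efficiency, was the only member below 0, at 94.4 against 107.7 FPKM and a log2 ratio of -0.19. Its plain ratio was 0.877 (0.821 to 0.936). The subunits' transcripts were therefore near parity in the SRSF2-KO-labelled library, with 0.985 Gclc per Gclm (0.936 to 1.04), and unequal in the WT-labelled library, with 0.726 (0.687 to 0.768). The parity itself rests on the transcript lengths that the authors used, which the comparison between the libraries does not.

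Srxn1 codes for sulfiredoxin, the enzyme that repairs over-oxidised peroxiredoxins. It stood at 37.9 FPKM in the SRSF2-KO-labelled library and 13.7 FPKM in the WT-labelled library, from an estimated 2432 and 699 fragments. The plain ratio was 2.76 (2.54 to 3.01) and the log2 ratio 1.40, which 335 of 11428 measured rows (2.93%) exceeded. Txnrd1, the cytosolic thioredoxin reductase, was at 35.9 against 28.5 FPKM, a plain ratio of 1.26 (1.19 to 1.34). The order of these genes differed between the libraries: Srxn1 was level with Txnrd1 in the SRSF2-KO-labelled library, at 1.05 to 1 (0.998 to 1.11), and at 0.481 to 1 (0.440 to 0.525) in the WT-labelled library. The proteins on which these enzymes act had more abundant transcripts. Prdx1, the abundant peroxiredoxin, stood at 634.6 against 770.9 FPKM and Txn1, thioredoxin, at 151.7 against 185.8 FPKM. There were 0.0597 Srxn1 transcripts per Prdx1 transcript in the SRSF2-KO-labelled library and 0.0178 in the WT-labelled library.

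Ugdh codes for UDP-glucose dehydrogenase, which makes the UDP-glucuronate used for glucuronidation. It was among the more abundant members, at 216.4 FPKM in the SRSF2-KO-labelled library and 119.7 FPKM in the WT-labelled library, from an estimated 7238 and 3182 fragments. The plain ratio was 1.81 (1.73 to 1.89), and the log2 ratio of 0.85 was exceeded by 7.24% of measured rows. The step before it differed in the other direction. Ugp2, which makes the UDP-glucose that Ugdh oxidises, stood at 128.2 against 221.9 FPKM, so that Ugdh exceeded Ugp2 in the SRSF2-KO-labelled library (1.69 to 1) and was below it in the WT-labelled library (0.539 to 1).

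Nqo1, a quinone reductase widely used as a readout of NRF2, was the scarcest of the 10 in both libraries. It stood at 9.60 FPKM in the SRSF2-KO-labelled library and 5.58 FPKM in the WT-labelled library, from an estimated 322 and 149 fragments. The plain ratio of 1.72 had an interval of 1.41 to 2.10, which reaches below 1.5, and the log2 ratio was 0.69. With a pseudocount of 3 in place of 1, Nqo1 no longer reached 1.5-fold. Nqo2, a related quinone reductase, differed in the other direction at 18.99 against 30.2 FPKM. The level of Nqo1 per Nqo2 was 0.506 in the SRSF2-KO-labelled library and 0.185 in the WT-labelled library.

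Ephx1 codes for microsomal epoxide hydrolase, which opens reactive epoxides made by cytochromes P450. It was the most abundant member in both libraries and hardly differed, at 258.5 FPKM in the SRSF2-KO-labelled library and 255.3 FPKM in the WT-labelled library. The plain ratio was 1.01 (0.976 to 1.05). Its soluble counterpart Ephx2, whose main substrates are fatty acid epoxides, stood at 196.0 against 300.1 FPKM.

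Hmox1, heme oxygenase 1, breaks heme down to biliverdin, iron and carbon monoxide. It was at 10.5 FPKM in the SRSF2-KO-labelled library and 9.48 FPKM in the WT-labelled library, with a plain ratio of 1.10 (0.933 to 1.30) that includes equality. Kupffer cells and other macrophages are known to express Hmox1 besides hepatocytes. In the same libraries the 13 macrophage and Kupffer cell markers summed to 167.3 FPKM and 163.7 FPKM. Of them 5 were higher and 6 lower by 1.5-fold or more in the SRSF2-KO-labelled library, beside 11.7% and 10.1% of all rows. Under both rescalings described further on, 5 were higher and 4 lower, beside 19.6% and 25.3% of rows higher and 4.7% and 4.6% lower. The markers ran from a log2 ratio of -2.23 for Cd163, a hemoglobin scavenger receptor, to 2.16 for Trem2, a receptor of lipid-associated macrophages. None was at 0 in both libraries. Trem2 and Gpnmb reached 1 FPKM in the SRSF2-KO-labelled library alone, and Cd163 and Timd4 in the WT-labelled library alone. Their part in the Hmox1 value was not tested.

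**Figure D2:**
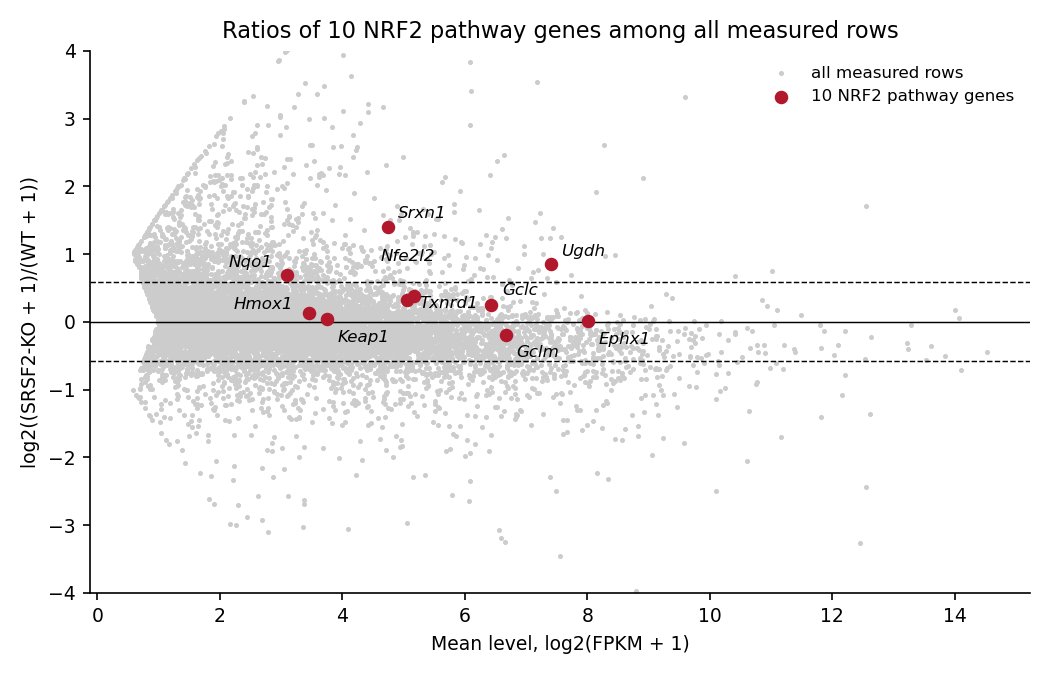
Log2 ratio against mean level, log2(FPKM + 1), for all 11428 measured rows (grey) and the 10 genes (red); dashed lines mark 1.5-fold in either direction and 29 rows lie beyond the axis. Srxn1, Ugdh and Nqo1 lie above the upper line, at 1.40, 0.85 and 0.69, and the other 7 lie between the lines.

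The levels of the members spanned a similar range in both libraries, from Nqo1 to Ephx1. In the SRSF2-KO-labelled library the order from the top was Ephx1, Ugdh, Gclm, Gclc, Nfe2l2, Srxn1, Txnrd1, Keap1, Hmox1 and Nqo1. In the WT-labelled library it was the same but for Srxn1 and Txnrd1, which changed places. Some neighbours in that order did not differ beyond counting error in the SRSF2-KO-labelled library: Gclm and Gclc, Nfe2l2 and Srxn1 (1.04 to 1, 0.985 to 1.11), Srxn1 and Txnrd1, and Hmox1 and Nqo1 (1.09 to 1, 0.933 to 1.27). In the WT-labelled library the same held for Nfe2l2 and Txnrd1 (1.06 to 1, 0.987 to 1.14), while Srxn1 lay below both. Ephx1 exceeded Ugdh by 1.19 to 1 in the SRSF2-KO-labelled library and by 2.13 to 1 in the WT-labelled library.

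The scaling of the libraries moved the ratios of the 10 genes by similar amounts. The deposited FPKM summed to 523254 in the SRSF2-KO-labelled library and 666262 in the WT-labelled library. Equal sums outside the 50 most abundant rows moved the log2 ratios of the 10 genes by 0.26 to 0.29, and rescaling both libraries to an equal overall total (TPM) moved them by 0.33 to 0.36. Scarce genes moved less evenly, since the pseudocount stayed at 1: Cd163 stood at -2.23 as deposited, -2.20 with equal sums and -2.59 in TPM. The median of all rows then lay at 0.21 and 0.28, and that of the 10 genes at 0.57 and 0.63. Relative to all rows the 10 genes thus stayed 0.32, 0.36 and 0.35 higher under the 3 scalings, and 9 of 10 lay above the median of all rows in each. Gclm was the exception throughout, although its own sign changed (-0.19 as deposited, 0.10 and 0.16 rescaled). With the rescaled values 5 and 6 of the 10 were at least 1.5-fold higher, against 19.6% and 25.3% of rows.

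**Figure D3:**
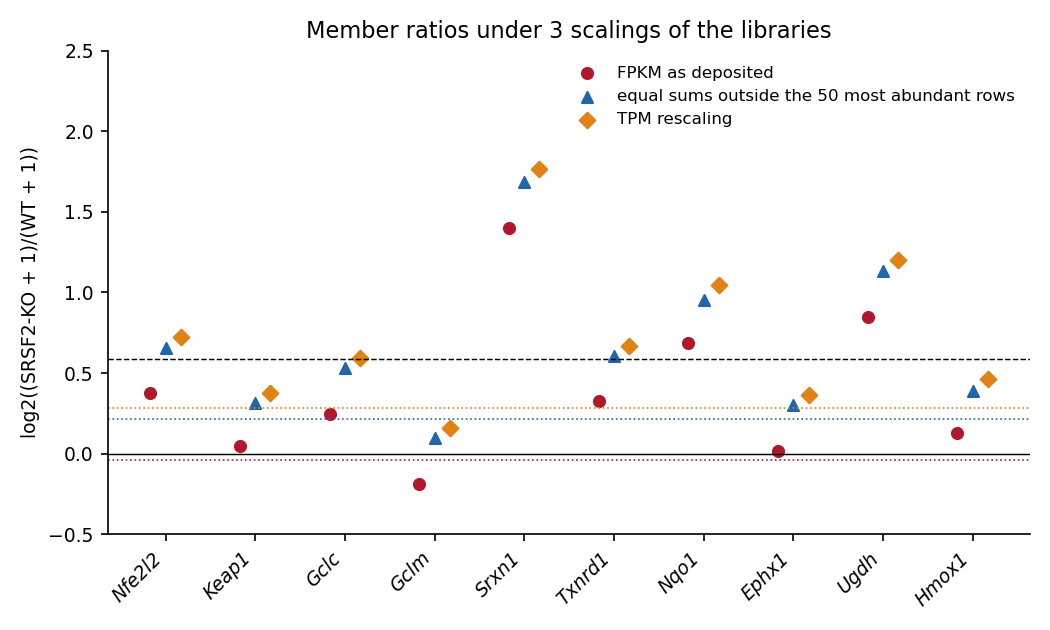
Log2 ratio of each of the 10 genes with FPKM as deposited (circles), after equalising the sums outside the top 50 rows (triangles) and after TPM rescaling (diamonds); dotted lines give the median of all measured rows for each in the same colour and the dashed line marks 1.5-fold. Each gene moves up by a similar step with the scaling, and Srxn1, Ugdh and Nqo1 stay on top, while Gclm stays below the dotted line of its own colour.

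The other genes of the pathway, 82 in 9 lists, differed in both directions. Of 76 measured, 7 were higher by 1.5-fold or more (11.7% of all rows were) and 11 lower (10.1% of all rows), with a median log2 ratio of -0.16. Of the 76, Cbr3, Ptgr1 and Abcc4 reached 1 FPKM in the SRSF2-KO-labelled library alone, and among the 73 that did so in both libraries 5 were higher and 11 lower. The lists were written with earlier results of these data known. After the rescalings the counts were 13 higher and 3 lower with equal sums, and 16 higher and 3 lower in TPM, against 19.6% and 25.3% of rows higher and 4.7% and 4.6% lower.

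NRF2 works with and against a set of other factors, and 17 of 17 of these were measured. None of them was higher by 1.5-fold or more (11.7% of all rows were) and 3 were lower (10.1% of all rows). Maff, a small MAF partner, stood at 1.75 FPKM in the SRSF2-KO-labelled library and 5.38 FPKM in the WT-labelled library. Bach1, a repressor that competes with NRF2 for the ARE, was at 4.32 against 7.30 FPKM, and Nfe2l1, a relative of NRF2 that drives proteasome genes, at 26.1 against 40.6 FPKM. In both rescalings 2 were higher and 1 lower, beside 19.6% and 25.3% of all rows higher and 4.7% and 4.6% lower. Relative to the median of all rows, the list median hardly moved: -0.10 as deposited, -0.11 with equal sums and -0.12 in TPM. Maff kept its size and the log2 ratios of Bach1 and Nfe2l1 remained below 0, while 2 genes passed 1.5-fold upward. Sqstm1, the adaptor p62 that draws KEAP1 into autophagy, had log2 ratios of 0.58 as deposited and 0.87 and 0.93 rescaled. As deposited, Sqstm1 missed the 1.5-fold cut narrowly, at 0.583 against 0.585. Mafk, another small MAF, stood at 0.35, 0.59 and 0.69. Nfe2l2 thus stood at 9.14 per Bach1 transcript in the SRSF2-KO-labelled library and 4.14 in the WT-labelled library, and at 1.51 per Nfe2l1 transcript against 0.745.

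Of the other genes of glutathione supply and turnover, 7 of 9 were measured. Among the 7, 1 was higher and 1 lower by at least 1.5-fold, beside 11.7% and 10.1% of all rows. Ggct, which acts on gamma-glutamyl amino acids, was at 5.17 FPKM in the SRSF2-KO-labelled library and 2.35 FPKM in the WT-labelled library, and Chac2, which degrades glutathione, at 11.4 against 18.5 FPKM. Slc7a11, the cystine carrier subunit that is a well-known NRF2 target, was listed at 0.438 FPKM in the SRSF2-KO-labelled library and at 0 in the WT-labelled library, and was not counted as measured. In both rescalings 2 genes of this list were higher, with Gss, glutathione synthetase, added, beside 19.6% and 25.3% of all rows. None was lower, beside 4.7% and 4.6% of all rows. All 10 other thioredoxin and glutaredoxin genes were measured and had log2 ratios below 0 as deposited, where 46.1% of measured rows lay above 0. The median of these 10 genes was -0.36 (-0.09 and -0.03 rescaled, when some of them turned positive). Relative to the median of all rows, the list median lay at -0.32 as deposited, -0.30 with equal sums and -0.31 in TPM. The lowest gene of this list was Txnip, the thioredoxin-interacting protein induced by glucose, at 40.01 against 129.6 FPKM. Glrx5, a mitochondrial glutaredoxin of iron-sulfur cluster assembly, stood at 48.2 against 67.8 FPKM.

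The list of NADPH-generating enzymes has 9 genes of NADPH supply, and Pgls, Taldo1, Tkt and Nadk among them do not make NADPH themselves. Of the 9, 1 was higher and none lower by at least 1.5-fold, beside 11.7% and 10.1% of all rows. Pgd, the phosphogluconate dehydrogenase of the pentose phosphate pathway, stood at 38.1 FPKM in the SRSF2-KO-labelled library and 13.5 FPKM in the WT-labelled library, a plain ratio of 2.82 (2.57 to 3.12) close to that of Srxn1. Nnt, the mitochondrial transhydrogenase, was at 22.0 against 33.0 FPKM. The count of higher genes was 1 with equal sums and 3 in TPM, beside 19.6% and 25.3% of all rows. Of 9 other quinone and carbonyl reductases and related genes, 3 were higher and 1 was lower as deposited, beside 11.7% and 10.1% of all rows. Cbr3, a carbonyl reductase, was at 5.41 against 0.434 FPKM, a plain ratio of 12.4 with a wide interval of 6.42 to 30.8. Osgin1, an oxidative stress-induced growth inhibitor, stood at 84.99 against 37.3 FPKM, and Ptgr1, which reduces reactive alkenals, at 2.56 against 0.642 FPKM. Of these, Cbr3 and Ptgr1 were counted as measured through the SRSF2-KO-labelled library alone, so that their place among the higher genes follows in part from the filter. The lower gene was Nqo2, which no longer reached 1.5-fold in either rescaling.

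Of 7 other heme breakdown and ferritin genes, 1 was at least 1.5-fold higher and none lower, beside 11.7% and 10.1% of all rows. The higher gene was Slc48a1, a heme transporter, at 31.0 FPKM in the SRSF2-KO-labelled library and 18.0 FPKM in the WT-labelled library. Fth1, the ferritin heavy chain, was at 2303 against 3039 FPKM. Of 10 other UDP-glucuronate genes, 3 were at least 1.5-fold lower and none higher, beside 10.1% and 11.7% of all rows. The 3 lower genes were Ugp2, Ugt1a1, the bilirubin glucuronosyltransferase, at 130.5 against 322.5 FPKM, and Ugt2b1 at 185.8 against 310.7 FPKM. In both rescalings Ugt1a1 alone kept that size, beside 4.7% and 4.6% of all rows. There 1 gene, Ugt1a9, was higher, beside 19.6% and 25.3% of all rows. Ugt1a genes share their last exons, and values of single members are uncertain. Among 4 other epoxide hydrolases 2 were measured, Ephx2 as above and Lta4h, the leukotriene A4 hydrolase, at 11.2 against 11.4 FPKM. Of 7 efflux pumps 5 were measured, with 1 at least 1.5-fold higher and 1 lower, beside 11.7% and 10.1% of all rows. Abcb1a, a multidrug transporter, was higher at 2.38 against 1.06 FPKM, and Abcc2, the canalicular pump of conjugates, lower at 79.7 against 124.4 FPKM. In both rescalings neither Abcc2 nor Ephx2 reached 1.5-fold.

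**Figure D4:**
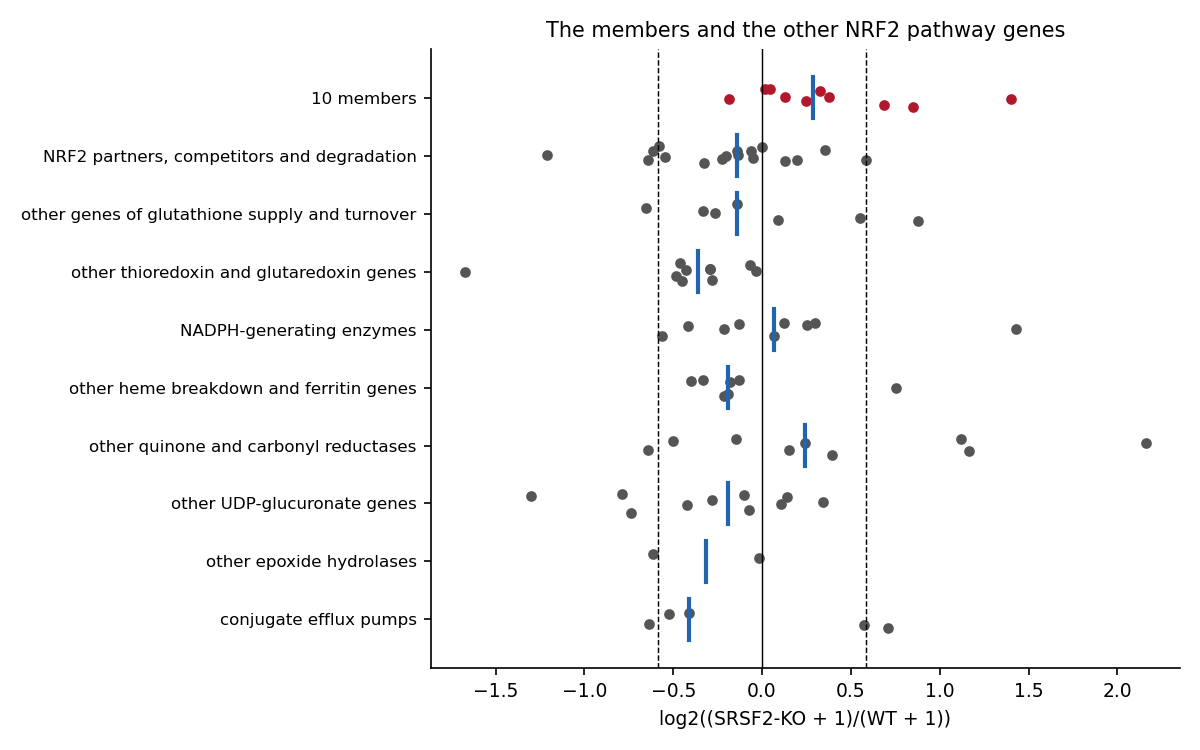
Log2 ratio of each measured gene in the 10 members (red) and in 9 lists of other NRF2 pathway genes (grey), with the list median as a blue bar and dashed lines at 1.5-fold. The medians of the 10 members (0.29) and of the other quinone and carbonyl reductases (0.24) lie furthest to the right, and those of the efflux pumps (-0.41) and the thioredoxin and glutaredoxin genes (-0.36) furthest to the left.

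A core of either form was found before 26 of the 73 other pathway genes that had a RefSeq window, beside 25.7% of all 27025 symbols. Of the 24 measured genes with a core, 2 were at least 1.5-fold higher (Ggct and Osgin1) and 4 lower, beside 11.7% and 10.1% of all rows. Of the 44 measured genes without one, 4 were higher (Pgd, Cbr3, Ptgr1 and Abcb1a) and 6 lower, so that the shares of higher genes lay near those of all rows with and without a core. Cbr3 and Ptgr1 were counted as measured through the SRSF2-KO-labelled library alone, so the count of higher genes without a core follows in part from the filter. Functional elements are known to lie outside such short windows as well.

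Several members answer to other sensors of foreign compounds too, such as Nqo1 to the aryl hydrocarbon receptor (AhR) and Ephx1 to the receptors CAR and PXR. All 6 genes of the CAR and PXR list were at least 1.5-fold lower in the SRSF2-KO-labelled library, beside 10.1% of all rows, with a median log2 ratio of -0.92. After the rescalings all 6 stayed below 0 and 3 kept that size, beside 4.7% and 4.6% of rows. Cyp2b10, the classic CAR target, stood at 2.64 FPKM in the SRSF2-KO-labelled library and 29.4 FPKM in the WT-labelled library, Por, the reductase of microsomal P450 enzymes, at 98.7 against 308.0 FPKM, and Nr1i3, which codes for CAR, at 30.1 against 61.9 FPKM. The remaining values were 125.6 against 224.8 FPKM for Alas1, the first enzyme of heme synthesis, 18.0 against 28.9 FPKM for Nr1i2, which codes for PXR, and 1116 against 1680 FPKM for Cyp3a11, a PXR target. Of 4 measured genes of the AhR list, none was at least 1.5-fold higher and 2 were at least 1.5-fold lower, beside 11.7% and 10.1% of all rows. The 2 were Cyp1a2 at 474.1 against 775.9 FPKM and Tiparp, an AhR-induced ADP-ribosyltransferase, at 1.75 against 3.41 FPKM. Neither reached 1.5-fold in either rescaling.

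The alpha, mu and pi glutathione transferases, well-known NRF2 targets outside the 10 members, were more spread. Of 11 measured, 4 were at least 1.5-fold higher and 1 lower in the SRSF2-KO-labelled library, beside 11.7% and 10.1% of all rows, with a median log2 ratio of 0.54. In both rescalings 8 were higher and 1 lower, beside 19.6% and 25.3% of all rows higher and 4.7% and 4.6% lower. As deposited, the transferases ran from 2.60 for Gstm3 (528.9 against 86.2 FPKM) to -0.98 for Gsta3 (812.8 against 1607 FPKM). That range contains that of the 10 members, and reads of these close relatives are hard to tell apart. With 1 library per genotype the difference between the groups of genes was not tested.

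Markers of other liver cells differed beside these genes, and in bulk RNA a change in the number of cells of a type and one in RNA per cell cannot be told apart. The 10 stellate cell and fibroblast markers summed to 208.8 FPKM in the SRSF2-KO-labelled library and 103.8 FPKM in the WT-labelled library. Of these markers 7 were at least 1.5-fold higher, beside 11.7% of all rows, and log2 ratios ran from -0.60 for Lrat to 2.91 for Col1a1. Col1a1 and Pdgfrb reached 1 FPKM in the SRSF2-KO-labelled library alone and so had to differ upward. Among the 8 markers that reached it in both libraries, 5 were higher and 1 lower. The bile duct and progenitor list summed to 279.96 against 26.6 FPKM, most of it Spp1 (3.54). Only 4 of its 9 markers were measured, with 3 higher and Krt19 lowest (-0.56). Krt19 reached 1 FPKM in the WT-labelled library alone and so had to differ downward. The sinusoidal endothelial list summed to 58.2 against 95.9 FPKM, from Oit3 (-1.71) to Stab1 (1.16). In it 5 of 9 were at least 1.5-fold lower, beside 10.1% of all rows (3 in both rescalings, beside 4.7% and 4.6%). Lymphocyte (8.03 against 2.57 FPKM) and neutrophil (25.8 against 8.05 FPKM) markers were scarce, with 3 measured in each list and all 3 higher, from Cd79b (0.67) to Ltb (1.47) and from Csf3r (0.70) to S100a8 (2.03). The lymphocyte markers, and Csf3r, reached 1 FPKM in the SRSF2-KO-labelled library alone and so had to differ upward. Ly6g was listed at 0 in both libraries, as Alb was. Erythroid markers summed to 313.6 against 533.8 FPKM, from Alas2 (-0.99) to Hba-a1 (-0.39). Hepatocyte markers other than Alb summed to 20131 against 27909 FPKM, from Ttr (-1.07) to Trf (-0.22), which turned positive under both rescalings. The part of these cell types in the values of the 10 genes was not tested.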

How the data were processed

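RNA from 2 mouse livers, 1 library per genotype, was sequenced on an Illumina HiSeq2000. Total RNA came from Trizol extraction and libraries from the standard protocols of Illumina, per the labels' protocols. Bowtie 0.12.2 and build mm9 were used, per the notes of the submitters on processing. A single table of FPKM was deposited by the authors, with columns KO and WT. Which program estimated FPKM, on which annotation, with what filters and strandedness, is not given in the sources used here. Deposited FPKM are scaled for depth and length but summed to different totals, so ratios carry an offset, and 0 can stand for a failed estimate.

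The 10 members and all lists were chosen with earlier results of these data known. A symbol was represented by its row of highest mean. All members were named in full, and in other lists the genes at least 1.5-fold apart, or the 2 furthest from 0 (highest and lowest for markers and transferases); level pairs and partners of members were chosen with the values known. Rows needed at least 1 FPKM in at least 1 library, the pseudocount was 1 and folds of 1.5 and 2 were counted. No test was run. Depth was fitted to low FPKM of genes for which GENCODE M21 lists 1 transcript (length offset 180 bases). Values estimated at 1 to 3 reads came within 0.1 reads of a whole number in 71.6% (SRSF2-KO) and 74.9% (WT). Fragments per gene used the median length of protein-coding transcripts in that annotation, of another build, and no coordinates of it. The depth fit and the 1.5-fold calls were tested on simulated data, and the other steps were not. Alternatives were other pseudocounts, filters and scalings. Python 3.11.15, numpy 2.4.6, pandas 2.3.3, scipy 1.17.1 and matplotlib 3.10.9 were used.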

Additional observations from a re-analysis of the deposited data

How the results depend on the processing

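The median log2 ratio of the 10 members moved to 0.57 when sums were made equal outside the top 50 rows and to 0.63 in TPM, the members at least 1.5-fold higher to 5 and 6, and those at least 2-fold higher to 2 and 3. Other pathway genes moved to 13 and 16 higher and 3 and 3 lower by 1.5-fold. Measured rows moved to 2301 and 3194 higher and 551 and 582 lower by 1.5-fold, and to 969 and 1364 higher and 226 and 242 lower by 2-fold. The rescalings also changed how many rows reached 1 FPKM, to 11720 and 12642 in place of 11428. With a pseudocount of 3, rows at least 1.5-fold higher numbered 769, and those at least 2-fold higher and lower 314 and 242. With a pseudocount of 0.1, 1059 rows were at least 2-fold higher. A minimum of 5 FPKM left 655 rows higher by 1.5-fold and 366 by 2-fold, and at least 1 FPKM in both libraries, an alternative chosen after seeing the data, left 794 and 323. With pseudocounts of 0.1 and 3 and with the median of all rows set to 0, all 10 member ratios moved by less than their counting intervals and 9 of 10 stayed above 0, but with a pseudocount of 3 the members at least 1.5-fold higher numbered 2. No paired analysis was possible because each genotype had 1 library. For the same reason no library could be left out, and intervals cover counting error only, with the least depth behind Nqo1 (149 estimated fragments in the library labelled WT).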
